A study of Mus musculus with 24 samples.

Results

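Replication-dependent histone genes encode the bulk of the H1, H2A, H2B, H3 and H4 proteins that package newly copied DNA. They were taken here as every row of the count table whose symbol is of the form Hist1h, Hist2h, Hist3h or Hist4h, followed by the class and copy. This gave 70 of 53465 gene rows, and the rule uses symbols alone. They comprised 6 linker histone H1 genes, 20 H2A, 19 H2B, 12 H3 and 13 H4 genes. Of the 70, 65 had enough counts to be tested in the input libraries and 62 in the comparison of J2 with input. Hist2h3c1 had 0 counts in every library.

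The 24 libraries came from 12 tumours of 2153L, a transplantable p53-knockout mouse mammary tumour used as a model of triple-negative breast cancer. Tumour pieces were grafted into the cleared fat pads of female BALB/c mice of 6 to 8 weeks, so stroma and immune cells are those of the host, and all groups share the p53 knockout of the graft. Dosing began near a tumour volume of 100 mm3. There were 4 treatments with 3 tumours each: vehicle, ORIN1001 (daily gavage of 150 mg/kg; the compound inhibits the IRE1α RNase), docetaxel (a taxane that freezes microtubules, injected intraperitoneally once a week at 10 mg/kg) and both drugs together, called the combination. Mice given a single drug also received vehicle. Each tumour gave an input library of total RNA and a library of the RNA pulled down by J2, which binds double-stranded RNA. All groups are bulk tumour, in which fewer cells of a type and less RNA per cell cannot be told apart.

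Most messenger RNAs end in a poly(A) tail, but mRNAs of replication-dependent histones end in a short stem-loop instead. The stem-loop binding protein, encoded by Slbp, holds this structure and, with the U7 snRNP proteins Lsm10 and Lsm11 and the cleavage factor Cpsf3, directs the cut that forms the end. NPAT switches the genes on as cells enter S phase, and the exonuclease ERI1 and the helicase UPF1 take part in removing the mRNA when DNA synthesis stops. These mRNAs are therefore abundant in dividing tumour cells and scarce in resting ones.

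By the RefSeq annotation of GRCm38.p6, 69 of the 70 genes could be placed (Hist1h2ap was not matched). On chromosome 13 lay 55 of them, all but Hist1h2al between 21715711 and 23934913. Hist1h2al, listed as a transcribed pseudogene, lay apart between 51200084 and 51203066. On chromosome 3 lay 10 between 96219885 and 96270192, and on chromosome 11 lay 3 between 58948911 and 58955192. Hist4h4 lay alone on chromosome 6 between 136803993 and 136804431. RefSeq lists 66 as protein coding and 3 as pseudogenes. A genomic span of 360 to 911 bases (median 485) was found for 62 genes, and 7 had a span over 1000 bases. No 2 members overlapped. There were 9 divergent pairs with start sites 163 to 280 bases apart, and each of the 9 paired an H2A with an H2B gene.

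The upstream sequence of the most abundant member of each class is shown because the classes differ in the elements found there, while their RNA was counted in the same libraries. Each run, from RefSeq on GRCm38.p6, reads 5′ to 3′ toward the start site on the minus strand and stops where a divergent neighbour starts. Capitals mark exact matches on either strand to the TATA box (TATAAA), the CCAAT box (CCAAT, or ATTGG in reverse) and the AC box of H1 genes (AAACACA).
Hist1h1e, chr13:23622559-23622808: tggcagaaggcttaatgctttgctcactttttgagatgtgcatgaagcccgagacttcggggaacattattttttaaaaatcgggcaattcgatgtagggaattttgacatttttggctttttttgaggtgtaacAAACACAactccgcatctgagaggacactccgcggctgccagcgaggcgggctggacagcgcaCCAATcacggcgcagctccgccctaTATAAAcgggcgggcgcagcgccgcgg
Hist1h2ak, chr13:21753913-21754075: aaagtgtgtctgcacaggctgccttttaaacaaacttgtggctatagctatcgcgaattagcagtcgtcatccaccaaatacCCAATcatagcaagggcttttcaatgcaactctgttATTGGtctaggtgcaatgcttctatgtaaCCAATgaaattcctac
Hist1h2bl, chr13:21716184-21716411: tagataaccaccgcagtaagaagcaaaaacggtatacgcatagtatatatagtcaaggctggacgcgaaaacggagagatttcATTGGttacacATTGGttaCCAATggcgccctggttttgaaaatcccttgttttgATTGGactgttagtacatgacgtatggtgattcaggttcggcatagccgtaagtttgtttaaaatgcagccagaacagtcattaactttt
Hist1h3e, chr13:23562386-23562635: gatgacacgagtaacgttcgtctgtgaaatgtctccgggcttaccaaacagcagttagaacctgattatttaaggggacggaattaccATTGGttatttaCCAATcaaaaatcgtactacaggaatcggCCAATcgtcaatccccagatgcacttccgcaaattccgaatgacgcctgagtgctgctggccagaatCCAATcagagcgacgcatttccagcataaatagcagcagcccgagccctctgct
Hist4h4, chr6:136804432-136804681: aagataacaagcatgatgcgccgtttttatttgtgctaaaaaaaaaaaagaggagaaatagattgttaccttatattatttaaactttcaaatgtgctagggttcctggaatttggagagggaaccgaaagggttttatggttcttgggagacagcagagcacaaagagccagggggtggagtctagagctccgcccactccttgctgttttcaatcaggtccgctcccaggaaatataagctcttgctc

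The run of Hist1h1e holds 3 matches, with the AC box 115 bases and the TATAAA run 27 bases upstream of the start. The runs of Hist1h2ak and Hist1h2bl, which end at their divergent partners Hist1h2bn and Hist1h2ai, hold 3 and 4 CCAAT matches, and that of Hist1h3e holds 4. Hist4h4 holds 0.
Over the window from 250 bases before to 50 after the start, CCAAT was found for 52 of 61 members with a RefSeq promoter (85.2%) and for 41.1% of 27025 genes. It was present in 6 of 6 H1, 17 of 17 H2A, 16 of 16 H2B and 10 of 10 H3 windows, and in 3 of 12 H4 windows. TATAAA was found for 35 members (57.4%) and 15.7% of all genes. The octamer ATTTGCAT was found for 14 members (22.95%), 7 H2A and 7 H2B, against 1.97% of all genes; divergent partners share bases, so these counts are not independent. CGGTCCG, the core of the H4 element called site II, was in 5 of 12 H4 windows and in 2.56% of all windows, and AAACACA in 5 of 6 H1 windows and 8.22% of all. All motifs were searched on both strands, and a match says only that the letters are there.

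A few libraries stood apart. The gene count of docetaxel tumour 3 input was 3273101, the lowest of the inputs (11.9 to 63.3 M, in units of 1e6 counts, in the other 11; 2.54 to 18.7 M in J2 libraries), and 67.1% of it fell on 4 ribosomal RNA locus rows, against 0.431% to 2.86% in the other 11 inputs. Among J2 libraries these rows took 37.9%, 56.6% and 22.7% in the combination, 13.8% in docetaxel tumour 3 and 1.25% to 6.02% elsewhere. The 12 epithelial markers had a summed level of 1992 to 3313 CPM in the inputs. None of them was at 0 in all inputs. That also held for the fibroblast, endothelial and immune cell markers, so it does not identify the tumour type. CPM here are gene counts per 1e6 after TMM scaling over all 24 libraries, and several results are also given without docetaxel tumour 3.

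Histone genes took a sizeable share of the input RNA of these tumours. Their counts made up 0.751% ± 0.115 (SD, n = 3) of gene counts in vehicle inputs, 0.840% ± 0.111 with ORIN1001 and 0.528% ± 0.159 with the combination. The docetaxel inputs held 1.16%, 0.980% and, in tumour 3, 0.115% (exact 95% interval 0.111% to 0.119%, for counting error only). On the scaled level the 70 genes summed to 5976, 7599 and 5312 CPM in the vehicle inputs, 5928, 7681 and 7401 with ORIN1001, 10064, 8302 and 4365 with docetaxel, and 5203, 2656 and 4075 with the combination. On this scale every combination input was therefore below every vehicle and ORIN1001 input, while docetaxel tumours 1 and 2 were above all others. By share of gene counts, however, combination tumour 1 (0.670%) lay above vehicle tumour 3 (0.644%).

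**Figure D1:**
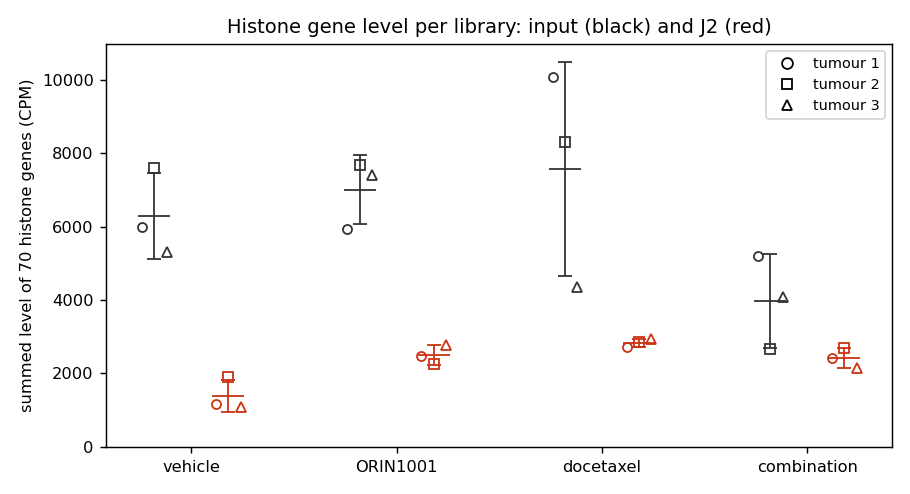
Summed level of the 70 histone genes (CPM, linear axis from 0) in each input (black) and J2 library (red), by treatment; symbols mark tumours 1 to 3, horizontal lines the mean and bars the SD of 3 tumours. The 3 combination inputs lie between 2656 and 5203 CPM and the vehicle inputs between 5312 and 7599, and in combination tumour 2 the J2 library (2698) lies at the level of its input (2656). By share of gene counts that J2 library (0.131%) lies below its input (0.356%).

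H1 and H4 genes led the list. Hist1h1e, a linker histone gene, had the highest mean input level (429 CPM), followed by the linker genes Hist1h1d (376) and Hist1h1c (375). The highest of the other classes were Hist4h4 (318) and Hist1h4d (193) for H4, Hist1h3e (186) and Hist1h3f (169) for H3, Hist1h2ak (153) and Hist2h2ac (137) for H2A, and Hist1h2bl (149) and Hist1h2be (140) for H2B. Per kilobase of gene span, Hist4h4 came first at 725 CPM per kb, then Hist1h1e at 549, Hist1h1c at 517, Hist1h1d at 485 and Hist1h4d at 481. Above a mean of 100 CPM lay 24 members. Under 1 CPM lay 11, among them the germ-cell genes Hist1h1t (0.234), Hist1h2aa (0.106) and Hist1h2ba (0.150). Near-identical copies share reads, and how reads that fit several places were handled is not given in the sources used here, so the level of a single copy is uncertain.

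The mix of classes was nearly constant across the vehicle tumours. In vehicle inputs H1 made up 24.04% ± 0.225 of the histone counts, H2B 15.7% ± 0.0264 and H4 28.2% ± 0.830 (SD, n = 3). In ORIN1001 inputs H2B made up 15.7% ± 0.442 and H4 28.04% ± 1.03. In the input of docetaxel tumour 3 H2B took 47.2% and H4 7.34%. J2 libraries had a larger H1 share than their inputs, at 36.0% ± 3.39 for vehicle and 46.3% ± 6.04 for the combination. H2B reached 22.2% in the J2 library of docetaxel tumour 3 and 22.3% in that of combination tumour 2, against 9.02% to 14.6% in the other 10 J2 libraries. Ribosomal RNA locus rows took 13.8% and 56.6% of gene counts in those 2 libraries. They took 37.9% and 22.7% in the J2 libraries of combination tumours 1 and 3, where H2B took 12.4% and 9.02%. In the input of docetaxel tumour 3 they took 67.1%. A link between the 2 shares was not tested.

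**Figure D2:**
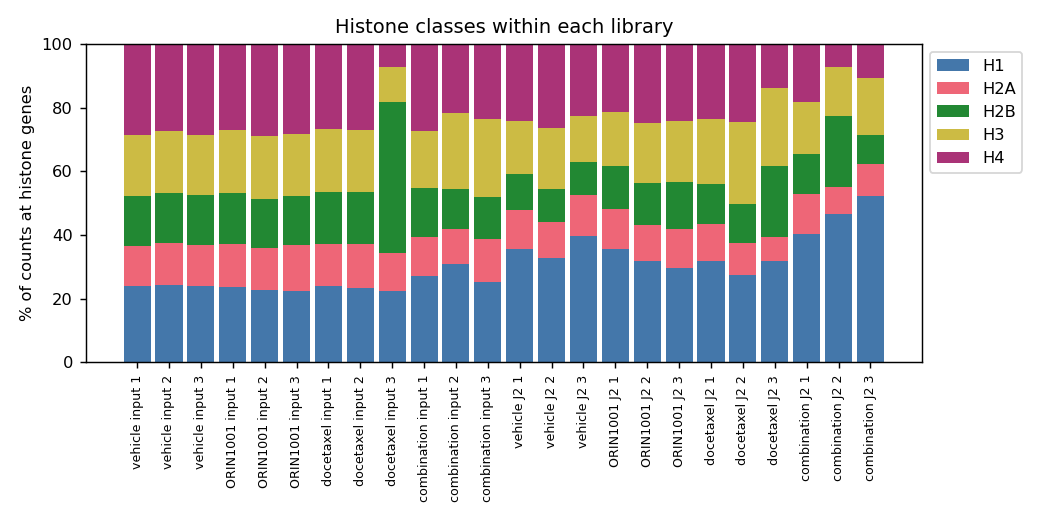
Share of histone counts (percent) taken by each class in each of the 24 libraries. The vehicle inputs hold 24.04% H1 on average and the combination J2 libraries 46.3%, and the input of docetaxel tumour 3 stands apart with 47.2% H2B.

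The first set of comparisons asked how each treatment changed histone RNA in the inputs. All 12 inputs were fitted together in edgeR (quasi-likelihood test, Benjamini-Hochberg adjustment over 17768 genes), and each value is a log2 fold change with its SE. With ORIN1001 alone 0 of 65 members passed against vehicle, as did 0% of all genes. An unadjusted p below 0.05 was found for 0 members and for 787 of all 17768 genes. DESeq2 and limma voom also called 0. The median of the members was 0.16 and that of all genes -0.01. Hist3h2ba, an H2B gene, had the smallest p at 0.50 ± 0.41 (edgeR adjusted p = 1.00). The highest member of H1, Hist1h1e, stood at 418, 540 and 375 CPM in vehicle and 404, 498 and 476 in ORIN1001 inputs, and the groups overlap. Levels of 2 members did not overlap, both higher with ORIN1001, as for 6.11% of all genes (6.38% were lower).

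With docetaxel 0 of 65 members passed against vehicle by edgeR, DESeq2 or limma voom, again beside 0% of all genes by edgeR. At an unadjusted edgeR p below 0.05 were 6 members, all higher, and 1857 of all 17768 genes in either direction. The median was 0.22 against -0.07 for all genes. The H2B genes with the smallest p were Hist1h2bn (1.97 ± 0.67), Hist1h2be (1.15 ± 0.40) and Hist1h2bl (1.503 ± 0.52), each with an edgeR adjusted p of 0.426. Docetaxel tumour 3 stood apart in these genes, and without it the values were 0.53, 0.52 and 0.54. Hist1h2bn stood at 50.6, 47.1 and 317 CPM in docetaxel tumours 1, 2 and 3 and at 29.6 to 38.4 in vehicle. Hist4h4 went the other way there, with 481, 415 and 29.0 CPM against 315 to 381 in vehicle. Without docetaxel tumour 3 the median of the members was 0.51 and still 0 passed. Levels in 7 of 65 members did not overlap between docetaxel and vehicle, all of them higher with docetaxel, as for 4.42% of all genes (10.5% were lower). Against ORIN1001, docetaxel also gave 0 members by edgeR (0% of all genes), 1 by DESeq2 and 0 by limma voom. At an unadjusted edgeR p below 0.05 were 5 members, all higher, and 2480 of all 17768 genes in either direction. Levels of 6 members did not overlap there, all higher with docetaxel (6.71% of all genes were higher and 13.8% lower).

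The combination gave the lowest histone levels. Against vehicle, 62 of 65 members were below 0, and the median was -0.68 while that of all genes was -0.03. By edgeR 0 of 65 passed (1.98% of all genes were called lower and 2.8% higher), and the smallest edgeR adjusted p was 0.0503. An unadjusted edgeR p below 0.05 was found for 10 members, all lower, and for 4892 of all 17768 genes in either direction. Input levels did not overlap for 28 of 65 members, all lower with the combination (25.5% of all genes were lower and 22% higher without overlap). DESeq2 called 3 lower (5.61% of all genes) and limma voom with sample weights 34 (20.1%). Without docetaxel tumour 3, which enters this contrast through the shared estimate of spread, the scaling and the filter, edgeR called 20 lower (13.4% of all genes), and without combination tumour 1 it called 8 (3.31%).

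Every class median was below 0. The medians against vehicle were -0.35 for H1, -0.74 for H2A, -0.76 for H2B, -0.43 for H3 and -0.85 for H4. Hist2h2ac, an H2A gene, stood at 139, 150 and 134 CPM in vehicle inputs and at 99.5, 41.3 and 77.8 in combination inputs (log2 fold change -0.91 ± 0.27, edgeR adjusted p = 0.0673). Hist1h4i, an H4 gene, stood at 105, 122 and 87.5 against 71.6, 37.7 and 43.8 CPM (-0.99 ± 0.31, edgeR adjusted p = 0.0735). In both genes the 3 combination tumours lay below the 3 vehicle tumours, with tumour 2 the lowest. Hist1h2bq had the smallest p (-1.98 ± 0.51) at levels of 0.650 to 0.850 CPM in vehicle and 0.110 to 0.233 in the combination.

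Against ORIN1001 alone, 5 members fell in the combination, or 7.69% of those tested, beside 5.43% of all genes, and 0 rose (7.2% of all genes). They were the H2B genes Hist1h2bq (-2.40 ± 0.51, edgeR adjusted p = 0.0206) and Hist1h2bf (-1.04 ± 0.29), the H4 genes Hist1h4m (-1.97 ± 0.50) and Hist1h4i (-1.27 ± 0.31), and the H2A gene Hist2h2ac (-1.15 ± 0.27). Hist1h4m lay near the floor, at 0.319 to 0.424 CPM with ORIN1001 and 0.0629 to 0.110 in the combination. Hist1h2bq was also low, at 0.810 to 1.37 and 0.110 to 0.233 CPM. The count without docetaxel tumour 3 was 38 of 65 (16.7% of all genes), and without combination tumour 1 it was 12. It was 0 without combination tumour 2 or 3 or without ORIN1001 tumour 2 or 3, and 3 without ORIN1001 tumour 1. The share of all genes is not given for the counts of 12 and 3, which show only how the result varied. Levels of 43 members did not overlap, all lower with the combination (28.1% of all genes).

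Against docetaxel alone, 11 members fell, beside 1.96% of all genes, and 0 rose (5.46%). Of the 11, 9 were H2B genes. Docetaxel tumour 3 stood apart in several of them. Hist1h2bl stood at 177, 148 and 629 CPM in docetaxel inputs and 83.8, 28.3 and 51.6 in combination inputs (-2.45 ± 0.54, edgeR adjusted p = 0.0252), and the fold change was -1.47 without that tumour. For Hist2h2ab, an H2A gene, the levels were 11.9, 10.9 and 107 against 5.29, 3.08 and 4.001 CPM, and the log2 fold change of -3.14 ± 0.78 became -1.36. Hist1h2bn went from -2.63 to -1.18 and Hist1h2be from -2.03 to -1.38, while Hist1h2bf moved little, from -1.57 to -1.505. Each of these 5 still passed without that tumour.
With docetaxel tumours 1 and 2 only, 53 of 65 members fell, beside 11.3% of all genes. The remaining members of the 11 were Hist1h2bq (-2.69 ± 0.53), Hist1h2bh (-1.60 ± 0.37), Hist1h2bm (-1.38 ± 0.30), Hist1h2bg (-1.28 ± 0.31), Hist1h2bj (-1.09 ± 0.30) and Hist2h2ac (-1.09 ± 0.28). Leaving out docetaxel tumour 1 or 2, or combination tumour 2 or 3, gave 0 calls, without ORIN1001 tumour 2 it gave 6, and without vehicle tumour 1 or 3 it gave 7. The share of all genes is not given for these counts, which show only how the result varied. Levels did not overlap for 11 members, all lower in the combination (8.63% of all genes).

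**Figure D3:**
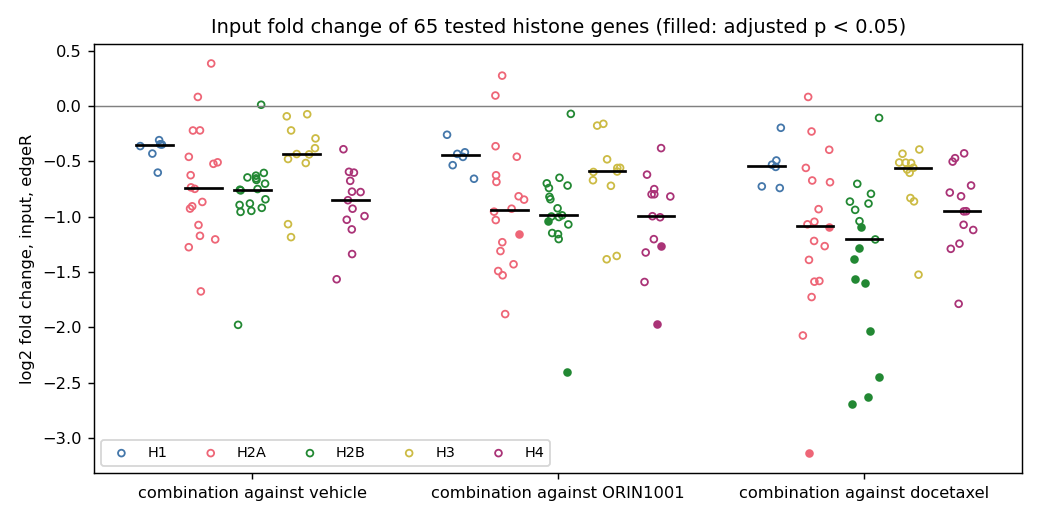
Log2 fold change of 65 histone genes in the combination inputs against each other treatment, by class; filled points have an adjusted p below 0.05 and black lines are class medians. Filled points number 0 against vehicle, 5 against ORIN1001 and 11 against docetaxel, and most open points also lie below 0.

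The genes that make and guard histone mRNA and the genes of S phase had medians nearer 0. A list of 31 tested genes of histone supply (transcription, 3′-end formation, decay and chaperones) had a median of -0.10 in the combination against vehicle, with 0 passing. S-phase genes had a median of 0.04 over 46 members with 1 lower (1.98% of all genes), and mitosis genes -0.08 over 30 with 0 called. Slbp stood at 59.8, 87.7 and 65.8 CPM in vehicle and 84.6, 81.4 and 82.0 in combination inputs (0.27 ± 0.21, edgeR adjusted p = 0.444). Npat was at -0.15 ± 0.27, the proliferation marker Mki67 at -0.06 ± 0.18 (its sign turned under other scalings) and the DNA polymerase clamp gene Pcna at -0.56 ± 0.25 (edgeR adjusted p = 0.178). Chaf1b, a subunit of the chaperone that loads H3 and H4 behind the replication fork, stood at 17.5, 18.6 and 19.7 CPM in vehicle and 12.2, 4.09 and 8.98 in the combination (-1.10 ± 0.33, adjusted p = 0.0659) and fell against ORIN1001 (-1.19 ± 0.33, edgeR adjusted p = 0.0390).
The 12 tested histone genes expressed outside S phase had a median of -0.35, with 0 passing. H3f3a, which encodes the replacement histone H3.3, was at -0.99 ± 0.37 (edgeR adjusted p = 0.115) and H2afj, an H2A variant gene, at -0.65 ± 0.22 (0.0906). In docetaxel Slbp stood at 108, 97.4 and 173 CPM (0.77 ± 0.22 against vehicle, edgeR adjusted p = 0.426).

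Host cell markers also differed between the combination and vehicle inputs. T-cell markers summed to 26.1 to 42.3 CPM in combination inputs and 16.2 to 18.6 in vehicle, with 11 of 11 above 0 and 0 passing. Cytotoxic and NK markers summed to 13.7 to 17.7 against 5.12 to 5.54 CPM (9 of 9 tested above 0, 2 passing). Neutrophil markers summed to 20.9 to 32.6 against 49.3 to 97.6 CPM (7 of 7 tested below 0, 3 passing). Of all genes 2.8% were called higher and 1.98% lower between these inputs. No marker of these lists was at 0 in every input, and their part in the histone levels was not tested. Ribosomal RNA locus rows took 1.75% ± 0.967 of the combination inputs against 0.727% ± 0.0997 of the vehicle inputs, and that was not tested either.

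The second set of comparisons asked how far histone RNA was recovered with J2. It was depleted. Averaged over the 4 treatments, 59 of 62 members (95.2%) were lower in J2 than in the input of the same tumours, against 30% of all 17338 genes tested, and 0 were higher (25% of all genes). The median log2 ratio was -1.76 for the members and -0.05 for all genes. The 3 exceptions were Hist1h1t, Hist2h2aa2 and Hist2h2be. The count was 57 to 60 with any single tumour left out.

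On the TMM scale most members were lower in J2 in each treatment. Lower members numbered 57 of 62 in vehicle (21.1% of all genes; 20.2% were higher), 54 with ORIN1001 (14.9%), 47 with docetaxel (12%) and 35 with the combination (20.5%), where 1 was higher (16.3% of all genes). Their medians were -2.59, -1.70, -1.56 and -1.21. Classes differed in the combination, where 1 of 6 H1, 10 of 16 H2A, 5 of 17 H2B, 8 of 11 H3 and 11 of 12 H4 members were lower. With library totals in place of TMM fewer members were called with ORIN1001 and docetaxel, as given in the last section. The summed level was 5.13, 4.01 and 4.87 times higher in the input than in the J2 library of vehicle tumours 1 to 3, and 2.41, 3.40 and 2.66 times with ORIN1001. With docetaxel the ratio was 3.71, 2.91 and 1.49, and with the combination 2.16, 0.984 and 1.90. All 3 vehicle tumours were thus above the other 9. As shares of gene counts, without TMM scaling, the ratio was 6.15, 4.74 and 5.82 in vehicle and 2.89, 4.09 and 3.12 with ORIN1001. It was 4.21, 3.27 and 0.360 with docetaxel, so the direction turned in docetaxel tumour 3. With the combination it was 3.76, 2.71 and 2.88, and the vehicle tumours were again above the other 9.

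By tumour, 2 of 12 departed from this pattern. In docetaxel tumour 3, 27 of 62 members were lower in J2, as were 39.4% of all genes, and the median was 0.23, beside 0.28 for all genes. In combination tumour 2, 37 of 62 were lower with a median of -0.54, beside 55.7% and -0.15 for all genes. In the other 10 tumours 57 to 62 were lower, beside 48.9% to 58.7% of all genes. A lower level in all 12 tumours was found for 12 members, in 11 tumours for 34 and in 10 for 11. The same count was not made over all genes. Leaving out docetaxel tumour 1 or 2 reduced the docetaxel count from 47 to 15, and without tumour 3 it was 58 (20.9% of all genes). Without combination tumour 3 the combination count, both directions, went from 36 to 15. The share of all genes is not given for the counts of 15.

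**Figure D4:**
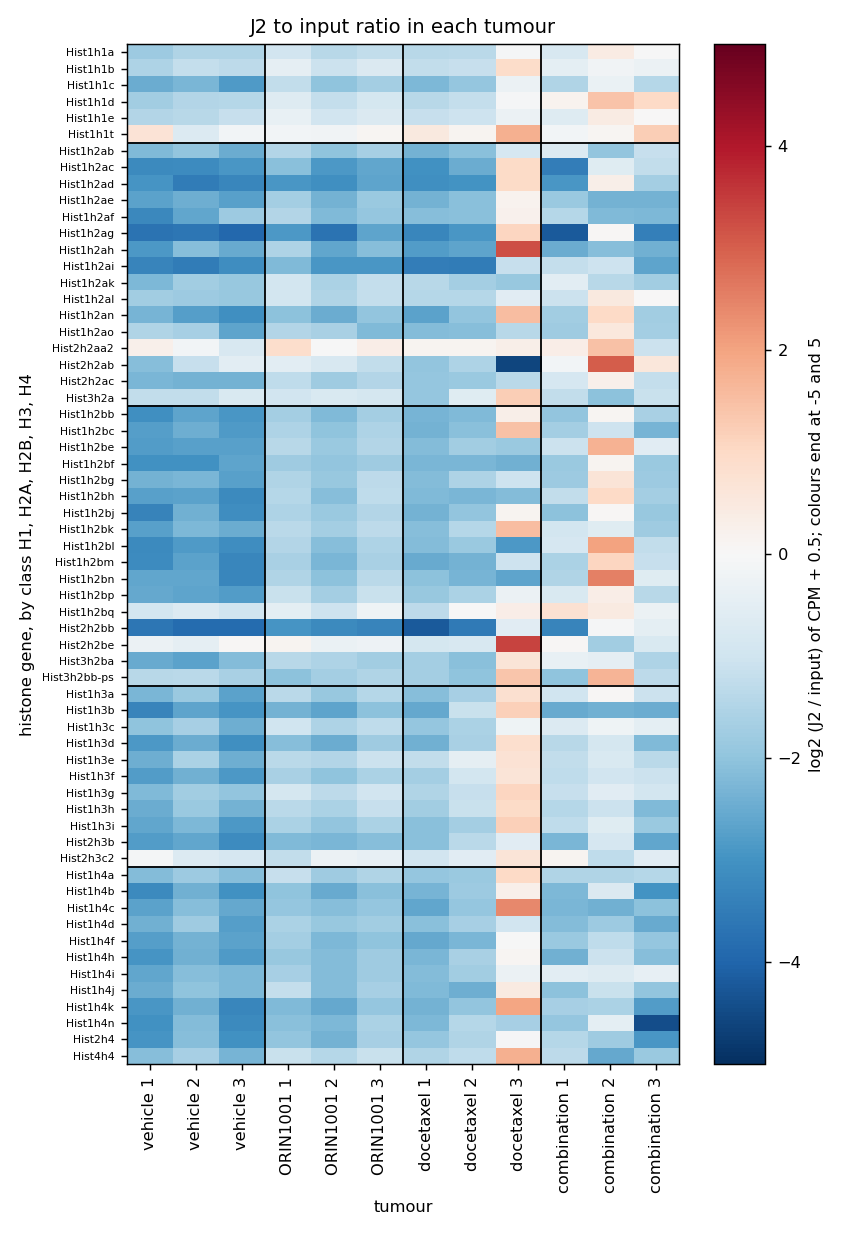
Log2 ratio of J2 to input (CPM + 0.5) for 62 histone genes (rows, by class) in 12 tumours (columns, by treatment); blue is lower and red higher in J2. Vehicle and ORIN1001 columns are blue nearly throughout. The column of docetaxel tumour 3 is mixed, with 27 of 62 members and 39.4% of all genes lower.

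Hist1h2ag, an H2A gene, had the lowest ratio over all treatments, at -3.93 ± 0.31 (edgeR adjusted p = 5.20e-07). Its input stood at 14.2, 21.5 and 11.9 CPM in vehicle and its J2 level at 0.638, 1.31 and 0.321. In the combination its J2 level was at the floor, with 0, 0.877 and 0 CPM, so the size of its ratio is uncertain. With a tumour left out that ratio ran from -5.21 to -3.45. Hist2h2bb, an H2B gene, followed at -3.10 ± 0.27, with 22.9, 27.3 and 23.9 CPM in vehicle inputs and 1.42, 1.45 and 1.20 in J2. The next were the H2A genes Hist1h2ai (-2.83 ± 0.18), Hist1h2ad (-2.65 ± 0.24), Hist1h2ac (-2.49 ± 0.22), Hist1h2ah (-2.39 ± 0.23) and Hist1h2ao (-2.37 ± 0.28). Hist1h3b, an H3 gene, was at -2.35 ± 0.19, and the H4 genes Hist1h4n and Hist1h4b were at -2.29 ± 0.24 and -2.21 ± 0.20. Of these 10 genes, Hist2h2bb, Hist1h2ai and Hist1h4n were lower in J2 in all 12 tumours. Hist1h2ag and Hist1h2ad were lower in 10, with docetaxel tumour 3 and combination tumour 2 above 0, and the other 5 were lower in 11.

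Linker histone genes were depleted least. The class medians were -0.74 for H1, -1.503 for H3, -1.76 for H2B, -2.02 for H4 and -2.11 for H2A. Hist1h1e was at -0.73 ± 0.11 and Hist1h1d at -0.62 ± 0.13, while Hist1h4d was at -1.97 ± 0.12 and Hist4h4 at -1.43 ± 0.21. The difference between classes was not tested. Levels of Hist1h4d were 196, 251 and 177 CPM in vehicle inputs and 36.7, 73.6 and 26.1 in their J2 libraries, so every J2 value was below every input value.

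Other histone genes also lay low in J2. Of 12 tested genes expressed outside S phase 9 were lower and 1 higher, with a median of -1.002. Of all genes 30% were lower and 25% higher. H3f3a was at -1.74 ± 0.17, the linker variant gene H1fx at -1.80 ± 0.25 and H2afx, whose product marks DNA breaks, at -1.22 ± 0.12. Of 31 histone supply genes 12 were lower and 5 higher (median -0.12), beside the same 30% and 25% of all genes. The U7 snRNP genes split, with Lsm11 at 1.35 ± 0.18 and Lsm10 at -1.45 ± 0.21. Eri1 was at 0.90 ± 0.14, with 86.0, 99.7 and 99.3 CPM in vehicle inputs and 215, 266 and 277 in J2. The cap-binding gene Ncbp2 was at -1.09 ± 0.13, the histone acetyltransferase gene Hat1 at -0.90 ± 0.11 and Cpsf3 at -0.80 ± 0.12. S-phase genes had 22 of 46 lower, 4 higher and a median of -0.26. Low levels in J2 were not confined to histone genes. Lower were 9 of 12 epithelial (1 higher, median -0.88), 9 of 11 T-cell (-0.93) and 8 of 10 macrophage markers (-0.87). Mitosis genes had 19 of 30 lower (-0.40), and fibroblast markers 3 of 11 lower and 2 higher (-0.11).

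**Figure D5:**
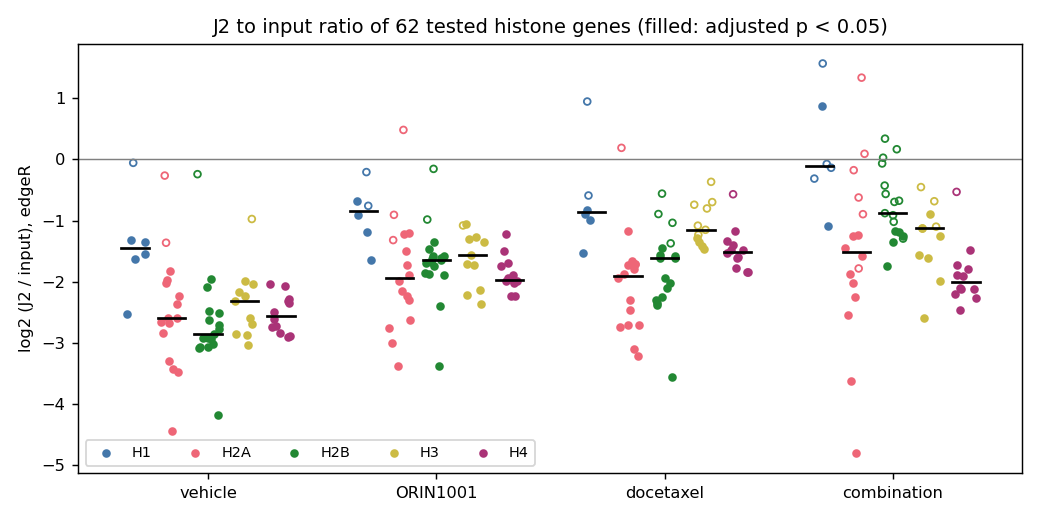
Log2 ratio of J2 to input for 62 histone genes in each treatment, by class, from edgeR; filled points have an adjusted p below 0.05 and black lines are class medians. Vehicle medians run from -1.45 for H1 to -2.86 for H2B, and in the combination the H1 median is -0.11 while that of H4 is -2.01.

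The third set of comparisons asked whether treatment changed the J2 ratio. In the combination 24 of 62 members (38.7%) had a higher ratio than in vehicle, against 12.7% of all genes, and 0 had a lower one (17.1% of all genes). With library totals in place of TMM the count was 3 (Hist1h2bn, Hist1h2bl and Hist1h2be), beside 0.427% of all genes higher and 14.6% lower. The median change on the TMM scale was 1.32 for the members and 0.00 for all genes. By class these were 4 of 6 H1, 5 of 16 H2A, 11 of 17 H2B, 3 of 11 H3 and 1 of 12 H4 members tested. On the TMM scale the group means differed on both sides of the ratio. The summed level was 1383 ± 443 CPM in vehicle J2 libraries and 2417 ± 277 in the combination (SD, n = 3), while in the inputs it was 6296 ± 1176 and 3978 ± 1277. As a share of gene counts the J2 libraries overlapped, at 0.111% to 0.184% in vehicle and 0.131% to 0.194% in the combination. With ribosomal RNA locus and mitochondrial rows left out of the total, the shares did not overlap. They were then 0.116% to 0.195% in vehicle and 0.254% to 0.321% in the combination.

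Hist1h1d had the smallest p. Its J2 level was 103, 160 and 113 CPM in vehicle and 371, 634 and 513 in the combination, and its input was 349, 443 and 301 against 329, 238 and 256. The 3 combination J2 libraries were above all vehicle and ORIN1001 ones. They overlapped the docetaxel J2 libraries, at 226, 204 and 371 CPM. The change was 2.41 ± 0.38 (edgeR adjusted p = 0.00119), and Hist1h1d was the 1 member higher in J2 than in input with the combination (0.87 ± 0.27, edgeR adjusted p = 0.0200). With library totals in place of TMM the change was 1.71 and did not pass. Hist1h1e changed by 1.25 ± 0.32, from 152, 209 and 170 CPM in vehicle J2 libraries to 266, 301 and 315.

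The largest changes were in H2B genes and leaned on combination tumour 2. Hist1h2bn changed by 3.11 ± 0.74 (edgeR adjusted p = 0.00705), with J2 levels of 4.68, 5.92 and 2.65 CPM in vehicle and 11.2, 57.9 and 11.5 in the combination. Hist1h2bl changed by 3.01 ± 0.63, with 11.3, 18.5 and 9.70 against 46.8, 116 and 21.9 CPM. Hist1h2be changed by 2.81 ± 0.52, with 14.9, 19.9 and 14.3 against 41.5, 128 and 35.0 CPM. All combination values lay above all vehicle values in these 3 genes, and without combination tumour 2 the changes were 1.91, 2.02 and 1.96, all still past the threshold.
Hist1h2bm (2.52 ± 0.58), Hist1h2bh (2.25 ± 0.53) and Hist1h2bp (2.17 ± 0.48) also passed without that tumour. Hist2h2bb (2.88 ± 0.81), Hist2h2ab (2.703 ± 0.84) and Hist1h2ad (1.98 ± 0.69) did not, with 2.47, 1.68 and 1.22. Over all members 16 of 62 passed without combination tumour 2 (7.39% of all genes higher). Without docetaxel tumour 3 it was 38 (18.6%). Hist4h4 (0.15 ± 0.58) and Hist1h4d (0.11 ± 0.33), the leading H4 genes, did not pass.

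Against docetaxel alone 8 members had a higher ratio in the combination (13.1% of all genes) and 0 a lower one (17.6%), so the share of 12.9% was near the background. They were Hist2h2ab (4.08 ± 0.87), Hist1h2bn (2.56 ± 0.71), Hist2h2bb (2.27 ± 0.82), Hist1h2bl (2.24 ± 0.62), Hist1h2be (1.97 ± 0.51), Hist1h1d (1.77 ± 0.38), Hist1h2bh (1.58 ± 0.52) and Hist2h2ac (1.11 ± 0.33). Without docetaxel tumour 3 the count was 27 (19.8% of all genes), without combination tumour 1 it was 13 (13.3%) and without docetaxel tumour 2 it was 5 (8.45%). Without combination tumour 2 there were 5 higher and 1 lower (10.9% and 12.8% of all genes) and the median of the members went from 0.35 to -0.073. There Hist2h2bb (1.95), Hist1h2bh (0.79) and Hist2h2ac (0.75) no longer passed, and Hist1h2bn (1.43), Hist1h2bl (1.31) and Hist1h2be (1.19) did. With library totals 1 was higher and 6 lower (0.75% and 31.2% of all genes). Against ORIN1001 alone 4 passed (8.69% of all genes; 6.45% of the members), namely Hist1h1d (1.78 ± 0.37), Hist1h2be (1.61 ± 0.51), Hist1h4i (1.36 ± 0.37) and the linker gene Hist1h1a (1.05 ± 0.36). That count was 14 without docetaxel tumour 3 (14.4% of all genes higher). It was 9 without combination tumour 1, 1 without ORIN1001 tumour 2, and 2 without combination tumour 2, ORIN1001 tumour 1 or 3, or any 1 vehicle tumour. For the counts of 9, 1 and 2 the share of all genes is not given, and they show only how the result varied. Without combination tumour 2, Hist1h2be (0.74) and Hist1h1a (0.76) no longer passed. With library totals 0 passed (0.404% of all genes higher). These comparisons share the combination libraries.

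Single drugs gave 0 calls by edgeR, and other tools differed. With ORIN1001 against vehicle the change was above 0 in 59 of 62 members with a median of 0.73 (0.01 for all genes). By edgeR 0 passed (0% of all genes), DESeq2 called 0, and limma voom with sample weights called 46 (10.2% of all genes). At an unadjusted edgeR p below 0.05 were 12 members, all higher, and 605 of all 17338 genes in either direction. Hist1h2bp had the smallest p, at 1.52 ± 0.44 (edgeR adjusted p = 1.00), with J2 levels of 2.62, 3.24 and 2.25 CPM in vehicle and 9.72, 6.69 and 10.8 with ORIN1001, which do not overlap. With docetaxel the median was 0.87 (0.05 for all genes) and 57 members were above 0. There, 0 passed by edgeR (0% of all genes), DESeq2 called 2 (0.0115% of all genes) and limma voom 0. At an unadjusted edgeR p below 0.05 were 21 members, all higher, and 730 of all 17338 genes in either direction.
The H3 genes Hist1h3f (1.95 ± 0.42) and Hist1h3e (1.80 ± 0.40) led with docetaxel, each with an edgeR adjusted p of 0.914, and were at 1.32 and 1.28 without docetaxel tumour 3. Hist1h3f stood at 23.9, 41.0 and 19.3 CPM in vehicle J2 libraries and at 80.0, 118 and 108 with docetaxel, again without overlap.

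Genes around the histone mRNAs changed in both directions in the combination against vehicle. Of 31 histone supply genes 9 had a higher and 4 a lower J2 ratio (12.7% and 17.1% of all genes), with a median of 0.21. The ratio of Eri1 fell by 1.74 ± 0.39, with input levels of 86.0 to 99.7 CPM in vehicle and 78.1 to 101 in the combination, and went from J2 levels of 215, 266 and 277 CPM in vehicle to 98.4, 43.4 and 85.1. Among histone genes expressed outside S phase, the ratio of the centromeric H3 gene Cenpa fell by 1.51 ± 0.32, while that of H2afx rose by 0.92 ± 0.32 and that of H2afj by 1.71 ± 0.61. S-phase genes had 15 higher and 4 lower of 46 (median 0.64). A higher ratio was also found for 8 of 12 epithelial markers (0 lower, median 1.41) and 9 of 30 mitosis genes (1 lower, 0.42). T-cell markers had 1 of 11 higher and 0 lower (0.14). The ribosomal RNA share of 39.0% ± 17.0 in the combination J2 libraries, against 5.17% ± 0.995 in vehicle, moved with all these changes, and its part was not tested.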

How the data were processed

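Input and J2 RNA of 12 tumours was sequenced as 24 stranded, ribosomal RNA-depleted libraries, per the labels' protocols. The authors deposited whole-number counts per gene. The submitters' processing notes name mm10, featureCounts 2.0.3, STAR 2.7.3a and fastp 0.23.2, with no role or order; how strand and multiply aligned reads were set is not given in the sources used here. Symbols matched 53274 of 53465 rows by Ensembl identifier, and 0 rows name no gene.

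Counts were tested with edgeR 4.0.16 (R 4.3.3; TMM, filterByExpr with minimum count 10 and minimum total 15, quasi-likelihood F test, two-sided, threshold 0.05 after Benjamini-Hochberg adjustment over all genes). The 12 inputs shared a fit with 1 coefficient per treatment. J2 was fitted on 24 libraries with the tumour as a block, since the design text pairs J2 with input; after removal of group means the pairs correlated at 0.101 to 0.785. Same-numbered inputs correlated above 0.1 in 2 of 18 pairs, so numbers were not used as a block. SE is the fold change divided by the root of F. Replicates differed by a chi-square of at least 11.5 per degree of freedom, so each library was counted as its own sample. The test was checked on simulated data. DESeq2 1.42.0 and limma 3.58.1 (voom with sample weights) were alternatives, with other scalings, filters, blocks and left-out libraries.

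The members follow from symbols alone, but this gene group and the lists were taken up with earlier results of these data known. Named were the top 2 members per class by input level, up to 10 called members per comparison (else the 3 smallest p), up to 6 supply and replacement histone genes per comparison, fixed cell-cycle genes and germ-cell members; of the listed genes only a part is printed. A table of transposable elements was not used here.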

Additional observations from a re-analysis of the deposited data

Results flagged for a closer look

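Each result here is a difference between treatments in the J2 to input ratio, tested as an interaction with edgeR. For the combination against vehicle this was the case for 24 of 62 members (12.7% of all genes were higher), of which 3 passed with library totals in place of TMM, named among them Hist1h2bn (3.11), Hist1h2bl (3.01), Hist2h2bb (2.88), Hist1h2be (2.81), Hist2h2ab (2.703), Hist1h2bm (2.52), Hist1h1d (2.41), Hist1h2bh (2.25), Hist1h2bp (2.17) and Hist1h2ad (1.98), all log2 changes. For the combination against docetaxel it was the case for 8 of 62 members (12.9%, against 13.1% of all genes), Hist2h2ab (4.08), Hist1h2bn (2.56), Hist2h2bb (2.27), Hist1h2bl (2.24), Hist1h2be (1.97), Hist1h1d (1.77), Hist1h2bh (1.58) and Hist2h2ac (1.11). For the combination against ORIN1001 it was the case for 4 of 62 members (6.45%, against 8.69% of all genes), Hist1h1d (1.78), Hist1h2be (1.61), Hist1h4i (1.36) and Hist1h1a (1.05). Neither of the last 2 counts is above the share of all genes. Hist1h1d and Hist1h2be appear in all 3 comparisons, which share the combination libraries, but Hist1h2be against ORIN1001 was at 0.74 and did not pass without combination tumour 2.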

How the results depend on the processing

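The depletion of histone RNA in J2 averaged over treatments kept its direction and count (58 to 61 members called) under each alternative, and 57 to 60 with a tumour left out; in vehicle it was 57 to 60, and 54 to 58 with a tumour left out. Counts that changed by over 1.5 times follow, beside the main ones in the report; the cause was not tested. With library totals in place of TMM, members called numbered 35 for J2 against input with ORIN1001, 9 with docetaxel, 3 for the J2 change of the combination against vehicle, 7 against docetaxel (6 of them lower), 0 against ORIN1001, and in the inputs 1 for the combination against docetaxel and 0 against ORIN1001. That scaling moved the median of all genes in the J2 change to -0.69, -1.38 and -0.73 for these 3 contrasts, and the members' medians to 0.65, -0.99 and -0.18. It also turned Hist2h2ac in the change against docetaxel to -0.33.

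With limma voom, members called in the inputs of the combination numbered 34, 57 and 55 against vehicle, docetaxel and ORIN1001 (20.1%, 16.7% and 26% of all genes lower); in the J2 change they numbered 20 and 13 against docetaxel and ORIN1001, 1 of each lower (22.5% and 19.5% of all genes higher), and 46 for ORIN1001 against vehicle (10.2%). DESeq2 called 3 lower for the combination against vehicle (5.61% of all genes), 10 lower against ORIN1001 (8.17%) and 1 higher for docetaxel against ORIN1001 (1.88%) in the inputs, and in the J2 change 13 (1 lower), 9 and 2 for the combination against docetaxel, against ORIN1001 and for docetaxel against vehicle (15.3%, 12.2% and 0.0115% of all genes higher). Without a filter on low counts the J2 change gave 14 (4 lower), 12 and 17 for the same 3 contrasts (5.87%, 4.53% and 0.117% of all genes higher). A fit of the compared inputs alone gave 5 lower for the combination against vehicle (7.63% of all genes), 0 against docetaxel (0%) and 28 against ORIN1001 (15.8%). The combination against vehicle in the inputs gave 1 with RLE size factors and 1 without ribosomal RNA and mitochondrial rows; without those rows the histone share of J2 libraries was 0.322% for docetaxel and 0.288% for the combination. The replicate block gave 0 calls for the combination against docetaxel and 2 against ORIN1001 in the inputs, and moved the median of docetaxel against ORIN1001 from 0.063 to -0.028 (library totals: -0.12). Without the tumour as a replicate block the J2 change against ORIN1001 gave 1 call.

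With a tumour left out, calls ran from 0 to 20, 0 to 53 and 0 to 38 for the combination inputs against vehicle, docetaxel and ORIN1001; from 37 to 56, 15 to 58 and 15 to 47 for J2 against input with ORIN1001, docetaxel and the combination; and from 16 to 38, 5 to 27 and 1 to 14 for the J2 change of the combination against vehicle, docetaxel and ORIN1001. For docetaxel against vehicle they ran from 0 to 1. These ranges show how far the counts moved, and the share of all genes is given above for only a part of the refits. Medians turned sign in part of these for the J2 change against docetaxel (-0.073 to 0.85) and for docetaxel inputs against ORIN1001 (-0.23 to 0.42) and vehicle (-0.047 to 0.51). Mki67 in the combination against vehicle was 0.0093 with RLE or DESeq2, 0.049 with library totals and -0.17 to 0.023 with a tumour left out. In docetaxel input 3, 3760 counts fell on histone genes, which limits its single-gene values.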
